A study of Rattus norvegicus with 10 samples.

Results

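Pannexins and connexins build the large pores through which brain cells exchange ions and small molecules. Connexins of facing cells dock into gap junctions that join their cytoplasms, whereas pannexins form single-membrane channels that release ATP into the extracellular space. Astrocytes are coupled into networks by connexins, oligodendrocytes carry their own set in myelin, and electrical synapses of neurons are made of connexin 36. In the hypothalamus these channels are known from glial glucose sensing and from coupling between neurons.

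The genes described were *Panx1*, *Panx2*, *Gja1*, *Gjb2*, *Gjb6*, *Gjc3* and *Gjd2*, selected by gene name from the deposited table of the arcuate nucleus (ARC), and 7 of 7 were found among its 12828 genes. This list was drawn up with the ranking of the table by diet known, in which *Panx2* stood near the top. RNA came from 10 Wistar rat mothers killed when they gave birth. During pregnancy 5 of them had eaten the 5X-FA diet (folic acid) and 5 the 5X-MTHF diet (methylfolate, the reduced form), both at 5 times the recommended folate level. Dams on a diet with the recommended level were not analysed here. The labels name no genetic modification and give no age. The ARC was cut free hand from frozen brain with the third ventricle as a landmark, so neighbouring tissue may be included, and each library is a mixture of cell types in which fewer cells of a type and less RNA per cell cannot be told apart.

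The values are the authors' average log2 CPM (counts relative to the total of the library, on a log2 scale), with 1 value per gene over the libraries of both diets. The values per dam were not used here, because their columns carry numbers that match no label, and the authors' own comparison of the diets was not used either. The difference between 5X-FA and 5X-MTHF dams was therefore not tested for any of these genes, and no spread between dams accompanies the values below. The study's methods name one approximate sequencing depth for all libraries, but the values do not tell the reads behind each library, so no counting error is given. CPM is not corrected for transcript length, so it gives the share of reads that a gene took and not an order of transcript levels.

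All 7 genes are protein-coding, and 0 of them overlap another gene of the table in Rnor_6.0, the build of the table. *Gja1* (ENSRNOG00000000805) lies at chr20:37876650-37889089, *Panx1* (ENSRNOG00000010060) at chr8:13566739-13606040 and *Panx2* (ENSRNOG00000055530) at chr7:130042947-130053032. *Gjc3* (ENSRNOG00000001329) lies at chr12:19166239-19167015 and *Gjd2* (ENSRNOG00000008337) at chr3:105467480-105470475. *Gjb2* (ENSRNOG00000008855) at chr15:37377316-37383277 and *Gjb6* (ENSRNOG00000022116) at chr15:37400889-37410848 are neighbours, with 17611 bases and 0 other genes of the table between them. The gene models differ in size, from the 777 bases of *Gjc3* to the 39302 bases of *Panx1*, introns included.

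**Figure D1:**
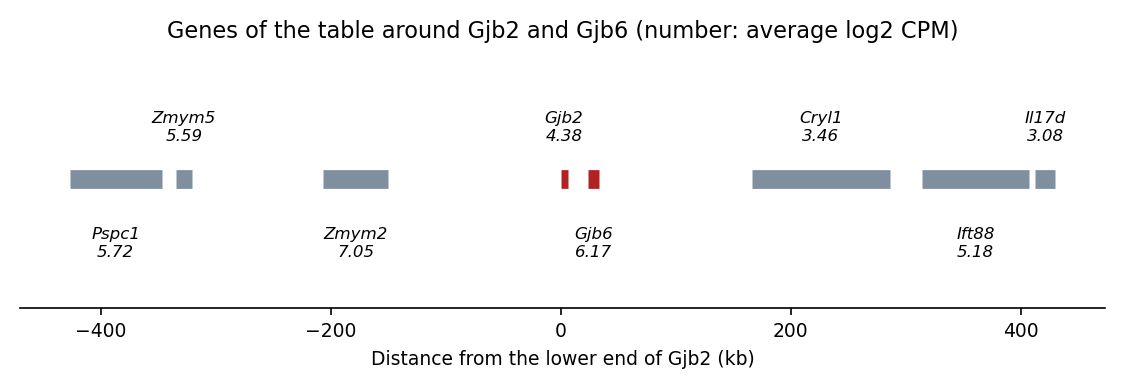
Genes of the table within 400 kb of the *Gjb2* and *Gjb6* pair, drawn to scale as the distance in kb from the lower end of *Gjb2*. Bars are gene spans, red for the pair, and the number under each name is the authors' average log2 CPM, 4.38 for *Gjb2* and 6.17 for *Gjb6*.

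Promoter windows were taken from RefSeq (GRCr8, from 250 bases before to 50 bases after an annotated start), where all 7 genes were matched, *Gjb6* with 2 starts. The following 4 windows are shown because they hold the letters TTAAAA on the strand of the gene, in capitals, a motif that was chosen after the sequences were seen. The windows of *Gja1* (chr20:36302314-36302613, plus strand), *Gjb2* (chr15:35381904-35382203, minus strand), *Gjb6* (chr15:35410089-35410388, minus strand) and *Panx2* (chr7:122018687-122018986, plus strand) read, 5′ to 3′:
Gja1: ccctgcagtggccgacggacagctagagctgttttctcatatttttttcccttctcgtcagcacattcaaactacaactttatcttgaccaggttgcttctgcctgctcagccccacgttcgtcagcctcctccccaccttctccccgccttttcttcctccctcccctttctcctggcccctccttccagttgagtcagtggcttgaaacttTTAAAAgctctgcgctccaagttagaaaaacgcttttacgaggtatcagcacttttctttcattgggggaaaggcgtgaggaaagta
Gjb2: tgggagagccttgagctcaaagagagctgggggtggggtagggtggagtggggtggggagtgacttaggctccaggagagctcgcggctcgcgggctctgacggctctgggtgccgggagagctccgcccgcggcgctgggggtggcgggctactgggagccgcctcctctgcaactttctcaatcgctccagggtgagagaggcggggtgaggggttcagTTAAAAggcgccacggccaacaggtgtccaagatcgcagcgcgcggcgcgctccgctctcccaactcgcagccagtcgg
Gjb6: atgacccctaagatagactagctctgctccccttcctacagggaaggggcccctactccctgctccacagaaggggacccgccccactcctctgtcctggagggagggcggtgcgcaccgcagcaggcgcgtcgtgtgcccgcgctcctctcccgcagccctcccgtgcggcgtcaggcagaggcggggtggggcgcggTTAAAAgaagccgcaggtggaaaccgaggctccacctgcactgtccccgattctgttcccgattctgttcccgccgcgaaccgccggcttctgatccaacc
Panx2: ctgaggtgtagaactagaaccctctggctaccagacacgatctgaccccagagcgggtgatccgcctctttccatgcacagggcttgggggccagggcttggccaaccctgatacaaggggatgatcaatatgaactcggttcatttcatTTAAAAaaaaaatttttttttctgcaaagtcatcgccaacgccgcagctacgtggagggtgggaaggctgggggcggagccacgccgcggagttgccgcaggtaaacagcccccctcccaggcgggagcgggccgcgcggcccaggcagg

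The motif begins 37 bases before the start of *Gja1*, 29 before that of *Gjb2*, 51 before that of *Gjb6* and 100 before that of *Panx2*. The 3 connexin genes of this set are those known from astrocytes, and *Panx2* is in it as well. Because the motif was chosen after the sequences were seen, this grouping does not test a link to cell type. Over the whole window, 12.9% of the 33465 promoters of the RefSeq table hold TTAAAA on this strand, and 7.34% of the 10584 promoters of protein-coding genes of the deposited table do. The windows of *Panx1*, *Gjc3* and *Gjd2* and the other window of *Gjb6* do not hold these letters on the strand of the gene. TTAAAA was counted on that strand only, and the window of *Gjd2* holds it on the opposite strand. The set of genes above depends on that choice. A match describes the sequence and is not evidence of a binding site.

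The windows held from 5 to 26 CpG dinucleotides. *Gjb2* and the *Gjb6* window shown had 25 each, with GC contents of 68.0% and 67.0%. *Panx1* had 26 CpG at a GC content of 56.3%, *Gjd2* had 20 at 62.0% and *Panx2* had 18 at 59.0%. *Gja1* had 10 at 50.3%, *Gjc3* had 5 at 49.3% and the other window of *Gjb6* had 5 at 52.3%. The median over all promoters was 7 CpG and 51.7% GC, and over protein-coding genes of the table it was 21 CpG and 61.0% GC. Of the 2 windows of *Gjb6*, the one shown was close to *Gjb2* in both measures and the other was not. The windows of *Gja1*, *Gjc3* and *Panx2* and the other window of *Gjb6* lay below the protein-coding medians in both measures.

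**Figure D2:**
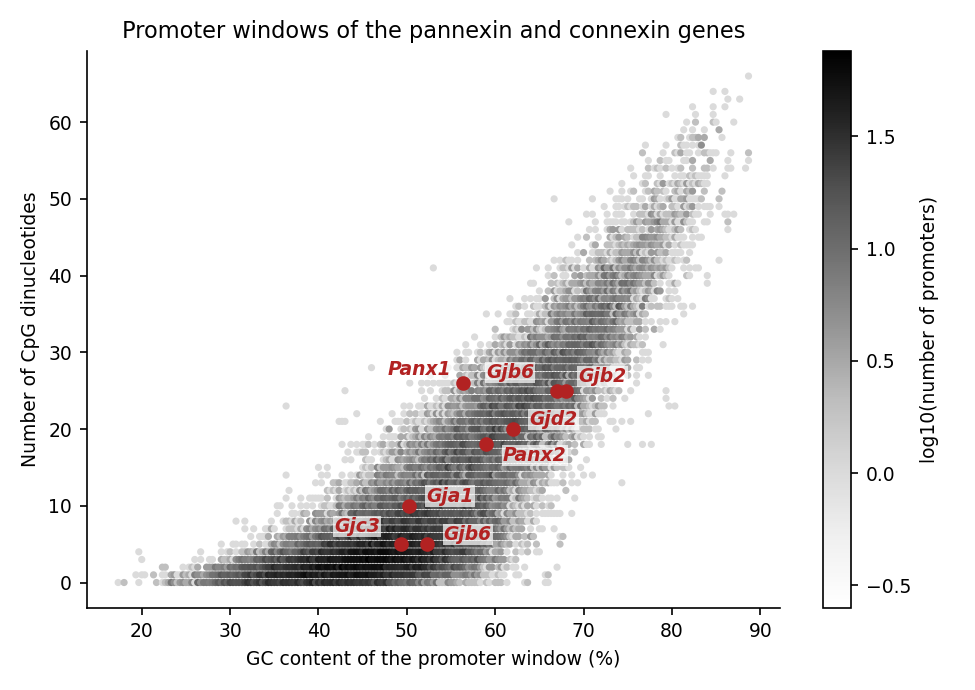
GC content (%, x axis) and number of CpG dinucleotides (y axis) of the RefSeq promoter windows, with all promoters in grey shades by their number on a log10 scale and the 8 windows of the pannexin and connexin genes in red. *Gjb2* and 1 window of *Gjb6* lie together at 25 CpG, and *Gjc3* and the other *Gjb6* window lie at 5.

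Other motifs were searched on both strands. A gene was counted if any of its windows held the motif, whereas the shares of promoters count single windows. For *Gjb6*, the E-box and TGACG were found only in the window shown. The GC box GGGCGG was found in windows of 5 of the 7 genes (*Gjb2*, *Gjb6*, *Gjd2*, *Panx1* and *Panx2*), beside 33.1% of all promoters and 61.8% of those of protein-coding genes of the table. The AP-1 letters TGANTCA were found in *Gja1* alone of the 7, beside 7.33% and 4.55%. The core TGACG of the cAMP response element was found in *Gja1*, *Gjb2*, *Gjb6* and *Panx1*, beside 21.2% and 30.5%. CCAAT was found in *Gja1*, *Gjc3* and *Gjd2*, beside 37.5% and 37.0%, and the E-box CANNTG in 6 of the 7 genes, all but *Panx2*, beside 72.1% and 62.7%. The TATA box TATAAA was found in 0 of the 7, beside 14.2% and 6.73%. Only 1 pair of matches shared bases within these windows, the E-box and the AP-1 letters of *Gja1*.

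Among the connexins of astrocytes, *Gja1*, which encodes connexin 43, the main gap junction protein of astrocytes, had an average log2 CPM of 8.96, or 497 CPM. This placed it at percentile 98.4 of all genes of the table. *Gjb6*, which encodes connexin 30, also carried by mature astrocytes, had an average log2 CPM of 6.17 (72.1 CPM, percentile 74.8). *Gjb2* encodes connexin 26, which astrocytes and cells of the meninges carry, and had an average log2 CPM of 4.38 (20.9 CPM, percentile 38.2). Although *Gjb2* and *Gjb6* are neighbours, their read shares lay on either side of the table's median average log2 CPM of 4.94. *Gja1* alone took 70.0% of the 709.5 CPM that the 7 genes summed to.

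Of the pannexins, *Panx2*, which is known mainly from the nervous system and largely from membranes inside the cell, had an average log2 CPM of 6.11 (69.3 CPM, percentile 73.7). *Panx1*, the widely expressed ATP release channel of the plasma membrane, had 3.92 (15.1 CPM, percentile 29.5). *Panx2* thus took a read share close to that of *Gjb6*, from which it differed by 0.06 on the log2 scale. Without values per dam, it is not known whether this step, or that of 0.17 between *Gjc3* and *Gjb2*, exceeds the spread between dams.

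*Gjc3*, which encodes connexin 29 of myelinating cells, had an average log2 CPM of 4.55 (23.5 CPM, percentile 41.8), counted on the shortest gene model of the 7. *Gjd2*, which encodes connexin 36 of electrical synapses between neurons, had the smallest read share of the 7, with an average log2 CPM of 3.54 (11.6 CPM, percentile 23.3). In all, 3 of the 7 genes lay above the median of the table and 4 below it, and their own median was 4.55.

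**Figure D3:**
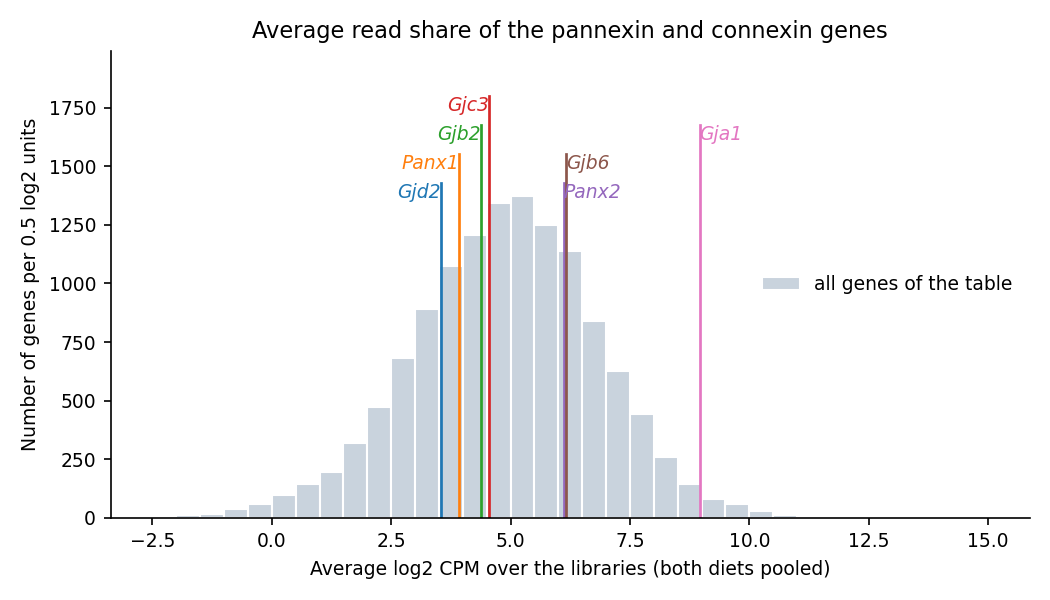
Number of genes of the table (y axis) per step of 0.5 in the authors' average log2 CPM (x axis), in grey, with a coloured line at each of the 7 pannexin and connexin genes. *Gja1* stands apart at 8.96, *Gjb6* and *Panx2* lie together at 6.17 and 6.11, and the other genes lie between 3.54 and 4.55.

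Of 15 further pannexin and connexin genes looked up, 2 had a value. *Gjb1*, which encodes connexin 32 of myelin, had an average log2 CPM of 4.72 (percentile 45.4). *Gjc1*, which encodes connexin 45, had 1.70 (percentile 5.2), below each of the 7 genes above. The other 13 genes, *Panx3* among them, were not analysed here. Together the 9 genes with a value summed to 739.1 CPM.

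The genes that act with these channels were grouped by role, and 24 of 29 had a value, with a median average log2 CPM of 4.97. Of 7 scaffolds and regulators the highest were *Nedd4*, a ubiquitin ligase that binds connexin 43, at 9.67, and *Tjp1*, the scaffold ZO-1 at gap junction plaques, at 7.63. The 4 genes found of 6 for other large-pore channels lay between 4.88 and 6.67, led by *Lrrc8a*, the obligatory subunit of the volume-regulated anion channel, at 6.67 and *Lrrc8d*, one of its partners, at 5.64.

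On the side of released ATP, the 6 receptors found of 7 lay between 2.57 and 4.18, all below the median of the table. The highest were *P2ry12*, the ADP receptor of microglia, at 4.18 and *P2ry1*, another ADP receptor, at 4.04. The ectonucleotidases, which break ATP down outside the cell, had 3 of 4 genes with a value, from 4.15 to 5.06, with *Entpd2* at 5.06 and *Nt5e*, which forms adenosine, at 4.32 as the highest. The 4 genes for adenosine receptors and adenosine kinase lay between 2.68 and 6.71, on both sides of the median of the table. The highest were *Adora1*, the inhibitory A1 receptor, at 6.71 and *Adk*, the kinase that removes adenosine, at 5.66. The vesicular nucleotide transporter gene *Slc17a9* was not analysed here.

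**Figure D4:**
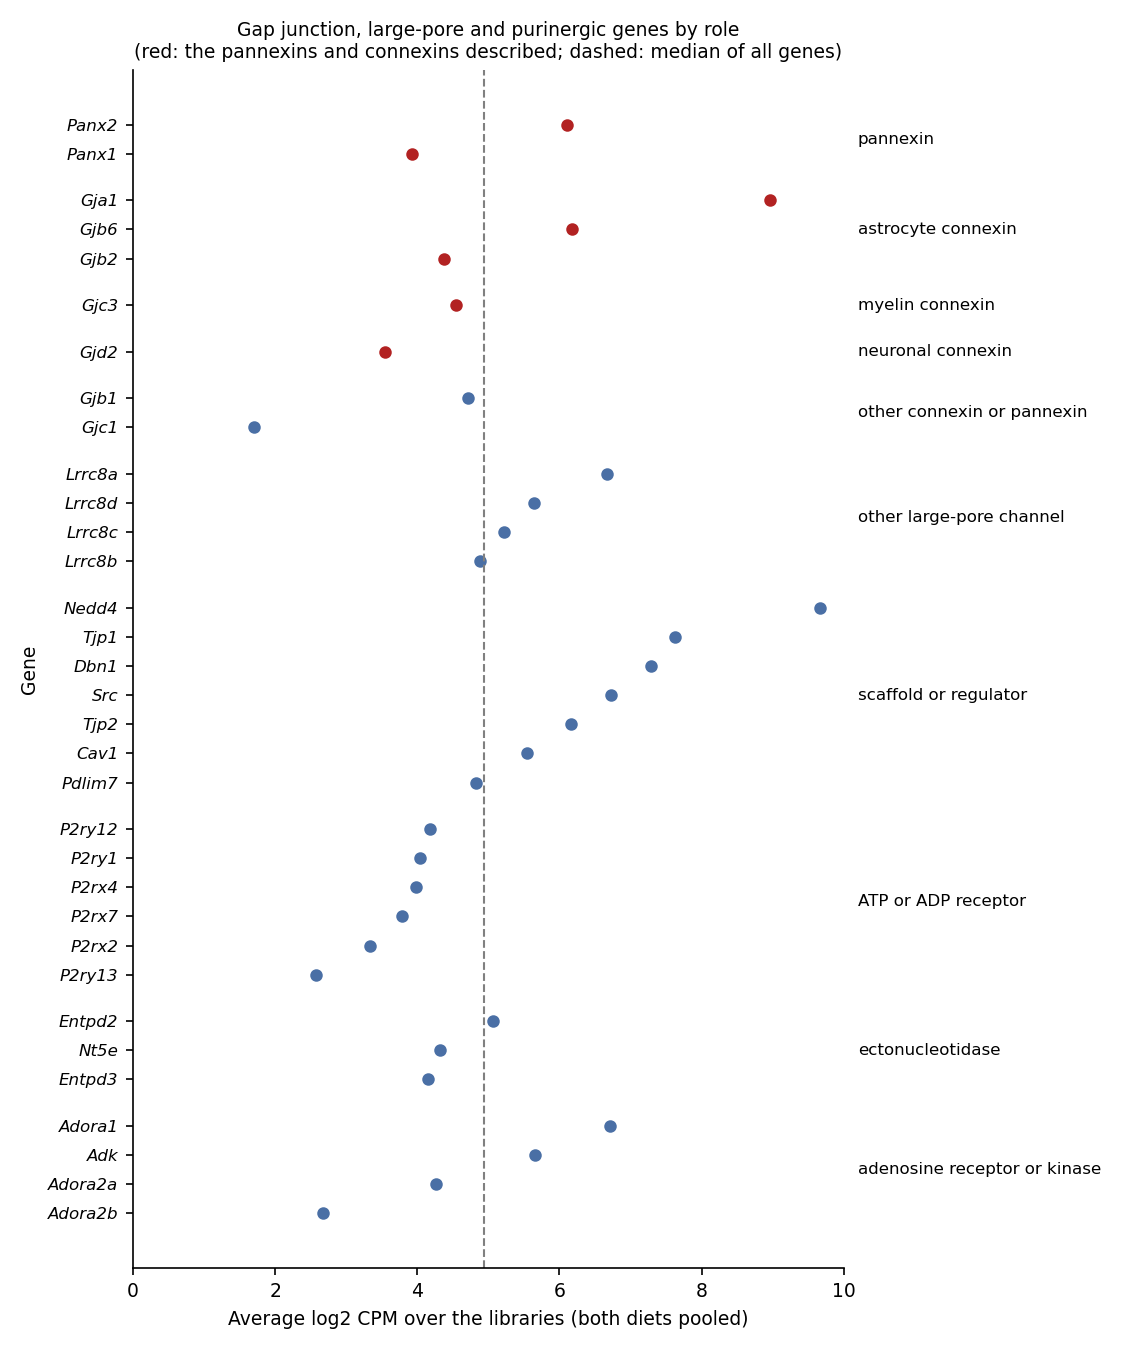
The authors' average log2 CPM (x axis) of each pannexin, connexin and partner gene with a value (rows), grouped by role, with the dashed line at the median of all genes, 4.94. The 7 genes described are red and the others blue, and the receptors for ATP and ADP all lie to the left of the line.

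Markers of the cell types that carry these channels were all found for astrocytes (10 of 10, median average log2 CPM 9.68), oligodendrocytes (8 of 8, median 8.84) and neurons (6 of 6, median 9.28). Markers of leptomeninges and vascular fibroblasts, cells that also carry connexin 26, had 7 of 8 genes with a value. Their median was 4.58, with values from 3.23 to 10.41. Of 10 arcuate markers 8 had a value, with a median of 3.06 and a highest value of 4.67 for *Pomc*. *Agrp* stood at 1.42 and *Kiss1* at 0.08, and *Npy* and *Nr5a2* were not analysed here. All 6 striatal markers had a value (median 5.19, highest 7.07), as did 5 of 5 thalamic markers (median 4.79, highest 7.43). For cerebral cortex and hippocampus, 5 of 6 markers had a value (median 3.34, highest 8.44). Markers of ependyma and tanycytes had a value in 4 of 7 cases, with a median of 3.79, from the tanycyte factor *Rax* at 0.08 to *Vim*, which astrocytes and vessels also express, at 7.32. The part of each cell type or region in the values of the pannexins and connexins was not tested.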

How the data were processed

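Per the labels and the methods of the study, poly-A selected RNA of the ARC was sequenced in pairs. Reads were trimmed (Trim Galore 0.5.0), aligned to Rnor_6.0 (STAR 2.6.0c) and summed per Ensembl gene (HTSeq 0.6.1p2). The authors deposited 1 table for 10 dams. Its average log2 CPM (counts relative to the total of the library) was used as deposited. Raised to the power of 2, this column sums to 1002152 over all genes, which gives its log base. The methods name a minimum number of reads per gene over all samples and a stricter filter within the test of the diets. Which of these, or another, was applied to the deposited table is not given in the sources used here.

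The table also holds the authors' fold changes, F statistics, p-values and FDR for the diets, which were not used, and 10 per-sample columns named by numbers that match no label, which were not used either. The planned fit across genes, the exact tests and the correlations between genes could therefore not be made, and groups were taken from the labels only for the description. The members and lists were chosen with earlier results of these data known. Genes named were the members, the other pannexins and connexins and, by role, the 2 partner genes with the highest value. Some genes of these lists are not reported here. Genes from the marker lists, and a few partners named as not analysed, were named for the tissue check or after their values were seen.

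Percentiles are the share of genes at or below a value. Promoters were RefSeq windows on GRCr8. Their coordinates are not comparable with those of the table. The percentile function and the search on both strands were tested on simulated data, the search only for whether an inserted motif was found. The search for TTAAAA and the CpG counts were not part of that test. Calculations were made in Python 3.11.15 (pandas 2.3.3, numpy 2.4.6, scipy 1.17.1), with figures by matplotlib 3.10.9.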

Additional observations from a re-analysis of the deposited data

How the results depend on the processing

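No paired analysis was possible because the per-sample columns carry no label, and for the same reason the other settings fixed at the start (pseudocount, filter, scaling, trend, replicate block, leaving out each dam, medians over libraries) were not run. Alternatives added after the data were seen changed the genes among which the percentiles were taken. They moved no average log2 CPM. Among protein-coding genes only, the percentile became 40.3 for *Gjc3*, 36.6 for *Gjb2*, 27.7 for *Panx1* and 21.5 for *Gjd2*. Without the genes whose value lay under 1 it became 73.0 for *Panx2*, 40.1 for *Gjc3*, 36.4 for *Gjb2*, 27.4 for *Panx1* and 21.0 for *Gjd2*. These lie outside the 95% Wilson interval of the percentile over all genes. That interval treats the genes of the table as a random sample and covers neither error in counting reads nor spread between dams. The changes follow from leaving out genes of small read share. The other 5 percentiles lay within that interval. With promoters of protein-coding genes of the table as the background, 5 of the 6 motif shares moved, for example that of the GC box from 33.1% to 61.8% and that of the TATA box from 14.2% to 6.73%.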
